A study of Mus musculus with 12 samples.

Results

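The 9 genes described here are *Gpr17*, *Bcas1*, *Enpp6*, *Itpr2*, *Tmem163*, *Cdk18*, *Tns3*, *Fyn* and *Sirt2*. All but *Tmem163* and *Cdk18* were taken as genes of the committed precursor and premyelinating stage of the oligodendrocyte lineage. *Tmem163* and *Cdk18* were chosen by their measured values, a large fall between WT and vehicle-treated *Ncf1*-/- libraries, so that every difference of these 9 genes from WT below is a description without a test. The 9 genes were matched by symbol and gene identifier among 45792 genes in the files, and all 9 were among the 15706 genes that passed the filter on low counts. *Tmem163* and *Cdk18* passed it through the WT group, since the filter left them out when only the 8 *Ncf1*-/- libraries entered.

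RNA-seq was done on neural stem cells (NSCs), the self-renewing precursors of the brain. The methods state that each culture was grown from the forebrain of a single mouse pup 1 to 2 days old. All cultures were at passage 2 and stayed in serum-free medium with EGF, FGF, insulin, transferrin, selenite and B-27, which holds NSCs in proliferation. The 3 groups had 4 cultures each. WT cultures, numbered 9 to 12 as in the labels, came from C57BL/6J pups without treatment. Cultures 1 to 4 came from pups with a constitutive loss of *Ncf1*, a cytosolic subunit of the superoxide-producing NADPH oxidase, backcrossed to C57BL/6J; the methods state that they were given vehicle, while the labels give no treatment. Cultures 5 to 8 were *Ncf1*-/- NSCs given mouse recombinant Igfbp2, a secreted protein that binds insulin-like growth factors, 48 h after plating, and RNA was taken 48 h later. The labels and the methods give different concentrations, so that none is stated here. The methods describe the vehicle-treated and Igfbp2-treated *Ncf1*-/- cultures as pairs from the same 4 pups.

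Library totals were between 18201622 and 34086554 expected counts, and WT culture 11 was the deepest. *Ncf1* itself had only 1 to 7 counts in any library, so its level could not check the genotype. *Igfbp2* stood at 636 to 768 CPM (counts scaled to library size with TMM factors) in vehicle-treated and 1016 to 1278 CPM in Igfbp2-treated *Ncf1*-/- libraries, and at 28.9, 27.4, 228 and 108 CPM in WT cultures 9, 10, 11 and 12. Y-linked genes summed to 105 to 115.5 CPM in the vehicle-treated and to 7.80 to 9.18 CPM in the Igfbp2-treated libraries, which was so in each pair described as 1 pup, and therefore treatment and this difference cannot be told apart. In WT they summed to 107 to 118 CPM in cultures 9 to 11 and to 6.46 CPM in culture 12. *Xist*, an RNA of female cells, was at 72.3 to 87.8 CPM with vehicle and at 165.7 to 274.6 CPM with Igfbp2. In WT cultures 9 to 12 it was at 3.87, 3.89, 5.22 and 290.8 CPM. Cultures of 1 pup share its sex, so these genes do not bear out the pairs as the methods describe them. Each vehicle-treated library held Y-linked RNA near the sums of WT cultures 9 to 11, and *Xist* well above theirs. These genes thus do not bear out a single pup per vehicle-treated culture either, and the reason was not tested. A second sample sheet of the study lists WT culture 12 with an inhibitor treatment, and WT culture 11 had the lowest level of all 9 genes within WT, so that the results are given with and without both.

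Oligodendrocytes arise from NSCs by way of oligodendrocyte precursors, which divide and carry *Pdgfra* and *Cspg4*. A precursor that leaves the cell cycle becomes a committed precursor and then a premyelinating oligodendrocyte, a branched cell that does not yet wrap axons, before it makes the proteins of compact myelin. *Gpr17*, *Bcas1*, *Enpp6* and *Itpr2* are known as marks of this short window, while *Fyn*, *Tns3* and *Sirt2* act in the growth of its processes and its cytoskeleton and are used by other cells as well.

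Promoter sequences from RefSeq (build GRCm38.p6, 250 bases before to 50 after the start site) matched 7 of the 9 genes, *Enpp6*, *Itpr2*, *Tmem163*, *Cdk18*, *Tns3*, *Fyn* and *Sirt2*. Those of the 3 genes that were near 0 in every *Ncf1*-/- library are shown, 5′ to 3′ on the strand of the gene, since the read counts turn most on them. Capitals mark the only match found in the 7 promoters, each searched on both strands. The strings were CAGCTG and CAGATG, E-box cores of the kind bHLH factors bind, and ACAAAG, 1 form of the core bound by SOX factors. Other forms of these cores were not searched, so lower case does not mean that a promoter holds none.
Enpp6 promoter, chr8:46986637-46986936, plus strand: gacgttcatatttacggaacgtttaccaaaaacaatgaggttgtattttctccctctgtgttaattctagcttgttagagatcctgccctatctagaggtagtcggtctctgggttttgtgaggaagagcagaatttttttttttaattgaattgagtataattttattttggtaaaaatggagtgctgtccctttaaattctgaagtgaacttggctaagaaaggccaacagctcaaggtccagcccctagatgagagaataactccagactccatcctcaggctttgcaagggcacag
Tmem163 promoter, chr1:127677972-127678271, minus strand: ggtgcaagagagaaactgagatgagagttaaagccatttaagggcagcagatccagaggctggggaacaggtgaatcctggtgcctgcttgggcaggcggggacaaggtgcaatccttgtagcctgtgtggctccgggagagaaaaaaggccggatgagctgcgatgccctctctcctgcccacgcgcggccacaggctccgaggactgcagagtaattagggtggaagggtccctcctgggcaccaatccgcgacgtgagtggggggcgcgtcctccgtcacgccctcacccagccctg
Cdk18 promoter, chr1:132139636-132139935, minus strand: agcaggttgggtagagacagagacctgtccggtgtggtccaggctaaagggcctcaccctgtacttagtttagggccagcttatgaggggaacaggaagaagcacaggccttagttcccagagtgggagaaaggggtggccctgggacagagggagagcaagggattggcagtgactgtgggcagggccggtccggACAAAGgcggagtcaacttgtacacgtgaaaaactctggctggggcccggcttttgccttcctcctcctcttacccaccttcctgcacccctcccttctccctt
ACAAAG lay 54 bases before the start site of *Cdk18*. Over 32851 promoter windows of the same length, 16.3% held CAGCTG, 17.2% CAGATG and 18.7% ACAAAG, so a window with 1 of these letter strings is common. The share of G and C was 40.3% in the *Enpp6* window, 61.7% in that of *Tmem163*, 58.7% in that of *Cdk18* and 73.3% in that of *Itpr2*. *Tmem163* (chr1:127486546-127679548) and *Cdk18* (chr1:132112237-132139684) lie on the minus strand of chromosome 1 by GENCODE M21 on GRCm38.

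On the TPM scale, which divides by transcript length and allows genes to be compared, *Sirt2* was the most abundant of the 9 in WT NSCs at 559.7 ± 195 TPM (SD, n = 4), followed by *Bcas1* at 409 ± 139.6 TPM. *Gpr17* and *Fyn* came next at 236 ± 75.0 and 229 ± 78.7 TPM, and *Gpr17* was above *Fyn* in 2 of the 4 cultures. *Tns3* stood at 128 ± 29.0 TPM and *Enpp6* at 105 ± 50.4 TPM. The lowest were *Tmem163* at 42.3 ± 26.3 TPM, *Itpr2* at 27.7 ± 8.82 TPM and *Cdk18* at 25.2 ± 14.7 TPM. The ranges of neighbours in this order overlapped throughout, while *Sirt2* was above *Bcas1*, *Bcas1* above *Gpr17*, *Fyn* above *Tns3* and *Enpp6* above *Tmem163* within each of the 4 WT cultures.

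The order was another one in vehicle-treated *Ncf1*-/- NSCs. *Fyn* led at 73.6 ± 9.97 TPM, ahead of *Sirt2* at 48.3 ± 2.40, *Tns3* at 25.1 ± 2.22, *Bcas1* at 21.5 ± 0.570, *Gpr17* at 5.92 ± 0.764 and *Itpr2* at 4.09 ± 0.832 TPM, and no range of these 6 met that of its neighbour. *Enpp6*, *Cdk18* and *Tmem163* were at 0.295 ± 0.174, 0.0725 ± 0.0695 and 0.0525 ± 0.0655 TPM, with ranges that overlapped. Igfbp2-treated cultures kept this order of the means, but there the ranges of *Tns3* and *Bcas1* and those of *Gpr17* and *Itpr2* overlapped. *Fyn*, *Sirt2* and *Tns3*, which other cells use as well, were the 3 most abundant in both *Ncf1*-/- groups.

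**Figure D1:**
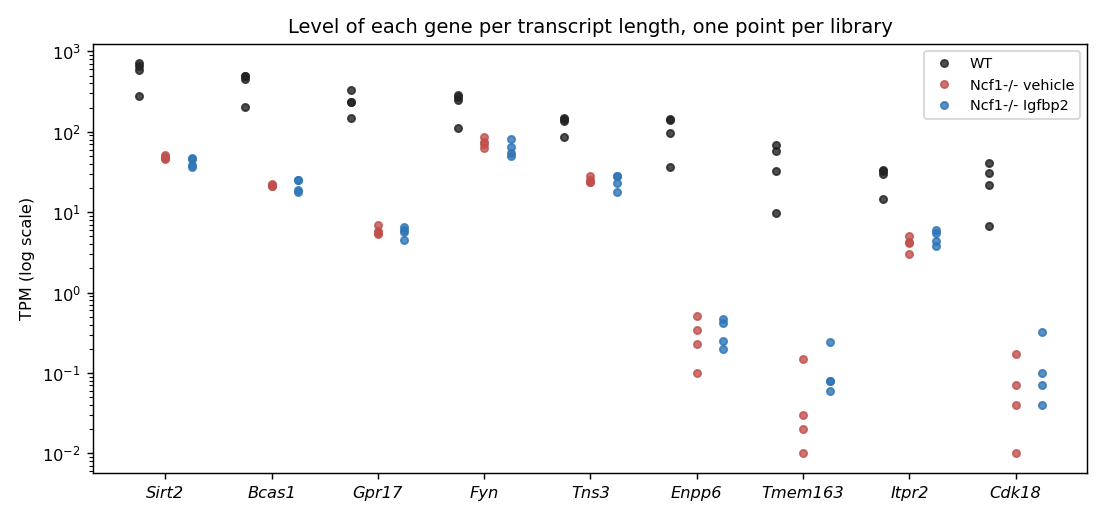
TPM (log scale) of the 9 genes in each of the 12 libraries, in the order of their WT mean, with WT in black, vehicle-treated *Ncf1*-/- in red and Igfbp2-treated *Ncf1*-/- in blue. *Sirt2* is highest in WT, *Fyn* in both *Ncf1*-/- groups, and *Enpp6*, *Tmem163* and *Cdk18* lie below 1 TPM in all 8 *Ncf1*-/- libraries.

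*Gpr17* (ENSMUSG00000052229), a G protein-coupled receptor that holds committed precursors back from maturation, had 1864, 1685, 903 and 2203 CPM in WT cultures 9 to 12. It had 40.7, 39.8, 48.8 and 31.75 CPM in vehicle-treated cultures 1 to 4, and 48.8, 50.6, 44.5 and 73.6 CPM in Igfbp2-treated cultures 5 to 8. WT culture 12 was the highest for this gene alone, and the lowest WT culture was 18.5 times the highest vehicle-treated one. The fitted log2 fold change of vehicle-treated against WT NSCs was −5.37 ± 0.29 (SE), which is 2.42% of the WT level.

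*Bcas1* (ENSMUSG00000013523, chr2:170346991-170427845, minus strand), which encodes a cytoplasmic protein found in premyelinating and early myelinating cells, stood at 1805, 1579, 543 and 1321 CPM in WT cultures 9 to 12. Its vehicle-treated values of 71.4, 70.5, 72.7 and 64.4 CPM were the most uniform of the 9 genes, with a coefficient of variation of 5.26%. The Igfbp2-treated values were 94.5, 83.2, 95.5 and 89.2 CPM, all above the vehicle-treated ones. Against WT the vehicle-treated group was at −4.23 ± 0.29 on the log2 scale.

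*Enpp6* (ENSMUSG00000038173, chr8:46986887-47096762, plus strand), a choline phosphodiesterase switched on as oligodendrocytes form, was at 456, 423, 90.3 and 249.6 CPM in WT. In vehicle-treated cultures it was at 0.697, 0.387, 0.883 and 0.336 CPM, from 8 to 20 counts a library, and in Igfbp2-treated cultures at 1.27, 1.74, 0.574 and 1.77 CPM, from 12 to 36 counts. The *Ncf1*-/- groups overlapped through culture 7, the lowest treated one. The log2 fold change of vehicle-treated against WT NSCs was −9.04 ± 0.59.

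*Tmem163*, which encodes a zinc transporter of membranes, had 3331, 2816, 674 and 1345 counts in WT cultures 9 to 12, against 2, 1, 6 and 2 counts in vehicle-treated and 6, 9, 5 and 4 counts in Igfbp2-treated cultures. *Cdk18*, a PCTAIRE kinase, had 2988, 2860, 782 and 1480 counts in WT, then 5, 4, 1 and 5, and 10, 10, 5 and 6 counts. Over the 4 libraries of a group, *Tmem163* summed to 8166 counts in WT, 11 with vehicle and 24 with Igfbp2, and *Cdk18* to 8110, 15 and 31. Both genes were thus at trace levels in every *Ncf1*-/- library. Their log2 fold changes in vehicle-treated against WT NSCs were −9.65 ± 0.79 and −9.21 ± 0.70, the values for which they were chosen, and rest on a few counts in the lower group.

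*Itpr2* (ENSMUSG00000030287, chr6:146108299-146502223, minus strand), the inositol trisphosphate receptor that releases calcium from the endoplasmic reticulum, had 416, 415, 155 and 371 CPM in WT. Vehicle-treated cultures were at 36.4, 41.2, 34.04 and 50.2 CPM and Igfbp2-treated cultures at 59.6, 80.0, 76.3 and 79.4 CPM, without overlap of the groups. Relative to WT the level was 11.9% with vehicle and 21.8% with Igfbp2. The log2 fold change of vehicle-treated against WT NSCs was −3.07 ± 0.27.

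*Tns3* (ENSMUSG00000020422, chr11:8431652-8664535, minus strand), a focal adhesion adaptor that links integrins to actin, was at 1384.5, 1378, 605 and 1179 CPM in WT. It was at 174, 181, 178 and 204 CPM with vehicle and at 225, 268, 253 and 295 CPM with Igfbp2. *Fyn* (ENSMUSG00000019843, chr10:39368855-39565381, plus strand), the Src family kinase that acts downstream of axon contact, had 932, 829, 356 and 840.2 CPM in WT, 253, 268, 296 and 296 CPM with vehicle and 339.9, 315, 343 and 303 CPM with Igfbp2. WT culture 11 was 1.204 times the highest vehicle-treated culture for *Fyn* and 2.96 times for *Tns3*, the smallest gaps among the 9 genes. *Sirt2* (ENSMUSG00000015149, chr7:28766735-28788661, plus strand), an NAD-dependent deacetylase of tubulin that is found in myelin, had 1701, 1652.5, 550.3 and 1274 CPM in WT, 115, 100.5, 115 and 92.1 CPM with vehicle and 136, 129, 117 and 134 CPM with Igfbp2. The log2 fold changes of vehicle-treated against WT NSCs were −2.62 ± 0.22 for *Tns3*, −1.41 ± 0.22 for *Fyn* and −3.61 ± 0.28 for *Sirt2*.

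**Figure D2:**
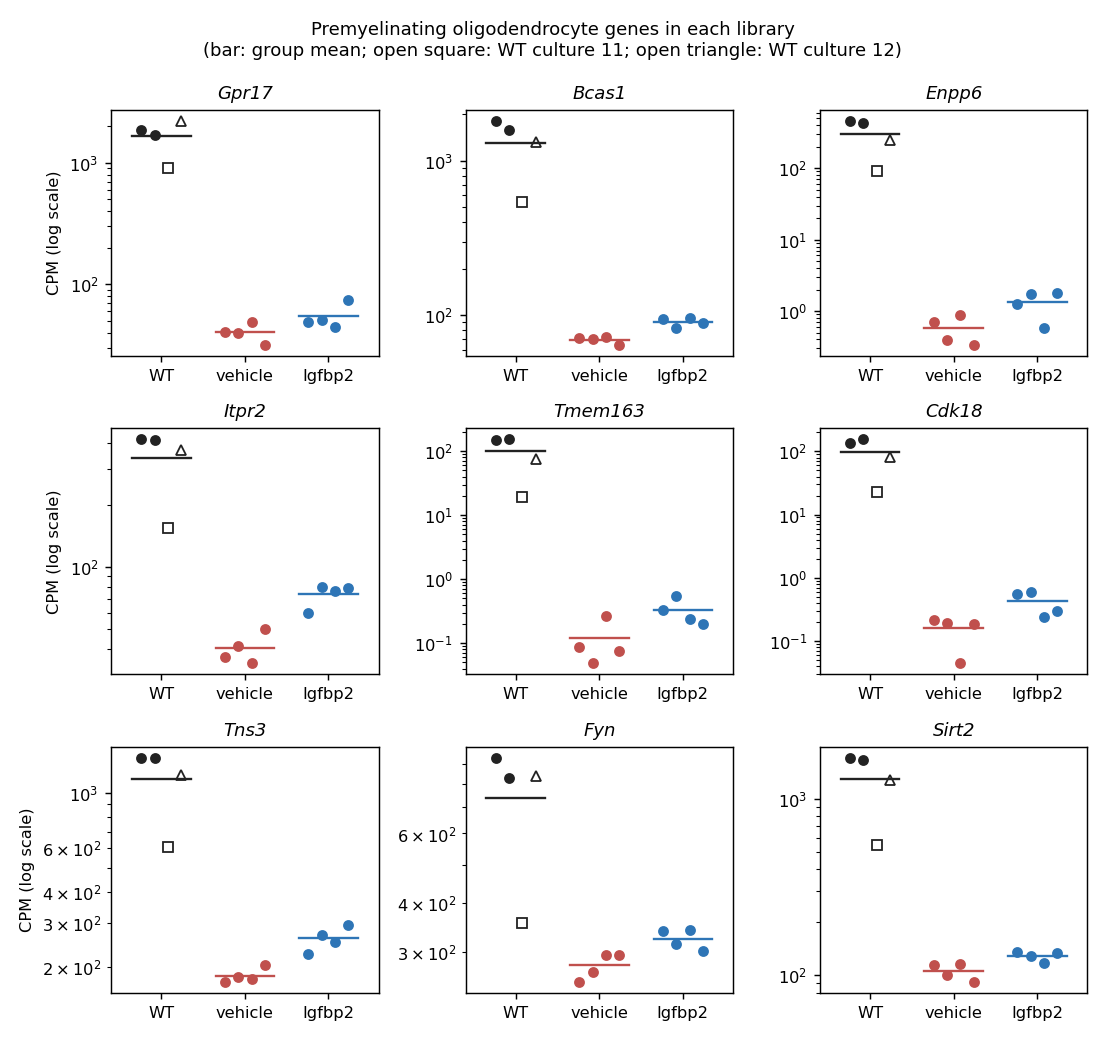
CPM (log scale, a different range in each panel) of each gene in the WT, vehicle-treated and Igfbp2-treated *Ncf1*-/- libraries, with bars for the group means, an open square for WT culture 11 and an open triangle for WT culture 12. In all 9 panels every WT library lies above every *Ncf1*-/- library, and the square is the lowest WT library.

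For all 9 genes every vehicle-treated library was below every WT library, as were 25.0% of all genes tested. Across all genes edgeR's quasi-likelihood test with Benjamini-Hochberg adjustment called 28.2% lower and 28.9% higher in vehicle-treated NSCs, and the median log2 fold change of all genes was 0.02. Nothing is read from these shares, because the contrast entered the choice of genes. In bulk RNA, fewer cells at this stage and less RNA per cell cannot be told apart. Without WT culture 11 the log2 fold changes ran from −1.64 for *Fyn* to −9.99 for *Tmem163*, and without WT culture 12 from −1.39 to −9.81. Leaving out both gave −1.71 and −10.30. The order of the 9 genes by size of this difference, *Tmem163*, *Cdk18*, *Enpp6*, *Gpr17*, *Bcas1*, *Sirt2*, *Itpr2*, *Tns3* and *Fyn*, was the same in these 3 fits.

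WT cultures differed more in these genes than in the median gene. The highest WT library was 3.09 times the lowest in the median of the 9 genes, against 1.305 in the median of the 11172 genes that averaged 5 CPM or more. The ratio was 7.86 for *Tmem163*, 6.88 for *Cdk18* and 5.05 for *Enpp6*, and between 2.29 for *Tns3* and 3.32 for *Bcas1* for the others. WT culture 11 was the lowest in all 9 genes, as it was in 30.5% of those 11172 genes. Compared with the mean of WT cultures 9, 10 and 12, it was 6.52-fold lower for *Tmem163*, 5.54-fold for *Cdk18* and 4.17-fold for *Enpp6*. The other 6 genes were between 2.12-fold lower for *Gpr17* and 2.89-fold lower for *Bcas1*. The 3 genes that were lowest in culture 11 relative to the rest of WT are the 3 that were near 0 in *Ncf1*-/- NSCs, and both measures share the WT libraries.

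Some markers of other cell states also differed among the WT cultures, in both directions. *Vim*, an intermediate filament gene of NSCs and astrocytes, was at 4569 CPM in WT culture 11, at 1528 CPM in culture 12 and at 626 and 664 CPM in cultures 9 and 10. *Aldh1l1*, a folate enzyme of astrocytes and radial glia, was at 1539, 715, 241 and 257 CPM in the same order, and *Nes* at 447, 118, 120.0 and 158 CPM. Culture 11 was the highest WT library for these 3, for 5 of the 8 NSC markers and for 3 of the 8 astrocyte markers. It was the lowest for the NSC markers *Sox2* (370.8 CPM) and *Prom1* (14.6 CPM) and for the astrocyte markers *Aqp4* (559 CPM), *Gja1* (547 CPM) and *S100b* (29.1 CPM), so these lists did not move as a whole. In the vehicle-treated libraries *Vim* was at 3848 to 4311, *Aldh1l1* at 1019 to 1143 and *Nes* at 696 to 960.4 CPM. The sum of the 8 NSC markers was 2456 to 7970 CPM in WT and 7642 to 8231 CPM in vehicle-treated NSCs, where 5 were called lower and 2 higher than in WT. The 8 astrocyte markers summed to 7359 to 13140 CPM in WT and to 3246 to 3800 CPM with vehicle, with 7 called lower. Of the 8 neuronal markers, 5 were called lower and 1, *Sox11*, higher. The sums overlapped at 233 to 357 CPM in WT and 222 to 327 CPM with vehicle. *Sox11* made up most of the vehicle-treated sum, at a mean of 224.5 CPM against 151.6 CPM in WT. *Dcx*, among the 5 called lower, averaged 7.75 CPM with vehicle and 66.6 CPM in WT, so the overlap of the sums does not hold for each marker. Microglial markers summed to at most 2.13 CPM in any library, with *C1qa* at 0 in all 12, and endothelial markers to at most 6.05 CPM. The part of these cell states in the differences of the 9 genes was not tested.

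**Figure D3:**
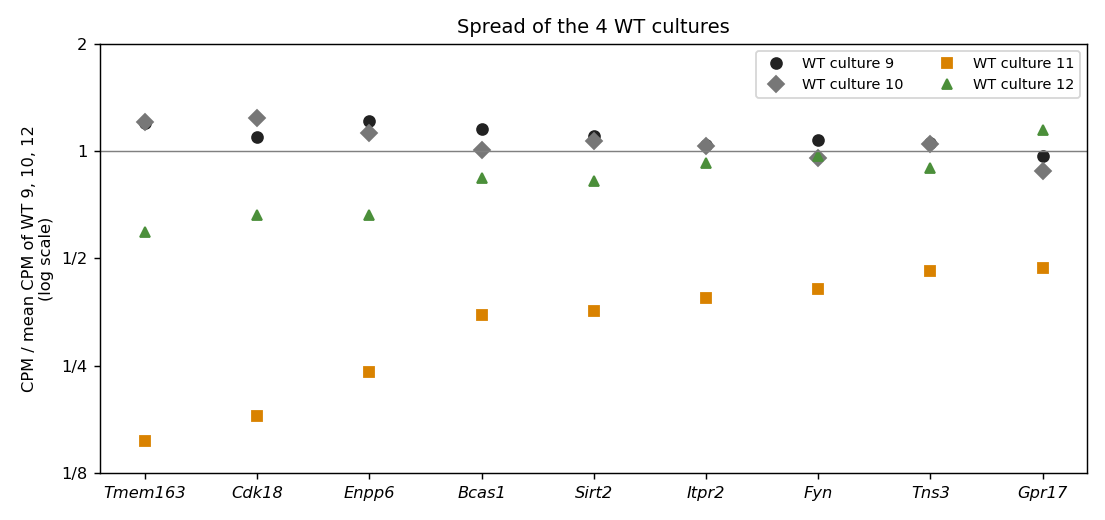
CPM of each WT culture divided by the mean of WT cultures 9, 10 and 12 (log scale), with genes ordered by how far culture 11 (orange squares) lies below. Culture 11 is below 0.5 for all 9 genes and lowest for *Tmem163*, and culture 12 (green triangles) lies below cultures 9 and 10 for 7 genes and is the highest for *Gpr17*.

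After Igfbp2, *Itpr2* was called higher than in vehicle-treated *Ncf1*-/- NSCs, as 1 of the 7 genes for which the test is read. *Tmem163* and *Cdk18* are left out of its counts, since they were chosen by their low vehicle-treated values and passed the filter through WT. The fitted rise was 0.87 ± 0.25 on the log2 scale (SE, n = 4 and 4), or 1.825-fold, with an adjusted p of 0.0256 by edgeR. The 4 pairs of cultures described as 1 pup each gave ratios of 1.64, 1.94, 2.24 and 1.58. Over all genes 14.2% were called higher and 10.7% lower, so that 1 call among 7 genes is near the background. The contrast shares its vehicle-treated libraries with the one on which genes were chosen.

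The other 6 genes did not pass the test. Their log2 fold changes were 0.43 ± 0.24 for *Gpr17* (edgeR adjusted p = 0.202), 0.38 ± 0.26 for *Bcas1* (0.300), 0.50 ± 0.20 for *Tns3* (0.0919), 0.29 ± 0.26 for *Sirt2* (0.434), 0.22 ± 0.22 for *Fyn* (0.476) and, at 8 to 36 counts a library, 1.21 ± 0.69 for *Enpp6* (0.213). The fitted values of *Tmem163* and *Cdk18*, given without a test, were 1.38 ± 1.51 and 1.32 ± 1.23. The fitted values of all 7 genes were above 0, as were 54.4% of all genes tested, and their median was 0.43 against 0.04 over all genes. The 4 treated libraries lay above the 4 vehicle-treated ones without overlap for 5 of the 7, *Bcas1*, *Itpr2*, *Tns3*, *Fyn* and *Sirt2*, as for 19.3% of all genes. For these 5 an exact permutation test (two-sided) gave p = 0.0286, the smallest that 4 against 4 libraries allow. Groups without overlap always give this p, which is not adjusted, so it adds nothing to that count. The permutation test gave p = 0.0571 for *Gpr17* and 0.0857 for *Enpp6*.

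These calls depended on the libraries in the fit. WT libraries enter this test through the shared estimate of the spread, the filter on low counts and the scaling factors. Without WT culture 11 the test called 4 of the 7 genes higher, *Bcas1*, *Enpp6*, *Itpr2* and *Tns3*, beside 18.0% of all genes. Without WT cultures 11 and 12 it called 5, these and *Sirt2*, beside 19.4% of all genes, with log2 fold changes between 0.25 for *Sirt2* and 1.17 for *Enpp6*. With the 8 *Ncf1*-/- libraries alone the same 4 were called as without culture 11, beside 19.5%, and with the pup as a block 3, *Bcas1*, *Itpr2* and *Tns3*, beside 19.0%. *Itpr2* was no longer called without vehicle-treated culture 1, 2 or 3 or without Igfbp2-treated culture 6, 7 or 8, where its adjusted p by edgeR lay between 0.0613 and 0.0908 and its log2 fold change between 0.76 and 0.88.

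The direction itself depended on the scaling for 5 genes. With log2(TPM + 1) and limma, *Gpr17*, *Bcas1*, *Tns3*, *Fyn* and *Sirt2* had log2 differences of −0.05, −0.001, −0.06, −0.25 and −0.20, *Itpr2* had 0.23 with an adjusted p of 0.439, and the lowest adjusted p was 0.418, that of *Fyn*. On that scale the median of all genes was −0.30, and *Gpr17*, *Bcas1*, *Itpr2*, *Tns3*, *Fyn* and *Sirt2* lay above it. A median by definition has as many genes above as below. *Enpp6*, *Tmem163* and *Cdk18*, below 1 TPM in these libraries, are held near 0 by the added 1 and are not read here. The mean TPM of *Sirt2*, for example, was 48.3 ± 2.40 with vehicle and 42.1 ± 5.33 with Igfbp2, and that of *Itpr2* was 4.09 ± 0.832 and 4.95 ± 1.02. With library totals in place of TMM the median of all genes was −0.24, *Fyn* was at −0.05, and *Itpr2* at 0.59 had an adjusted p of 0.0716 by edgeR. When TPM were rescaled after the 100 top genes were taken out, a setting chosen after the data were seen, the values of the 7 genes were above 0, at a median of 0.30 against −0.07 over all genes, and the lowest adjusted p, that of *Itpr2* by limma, was 0.109.

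**Figure D4:**
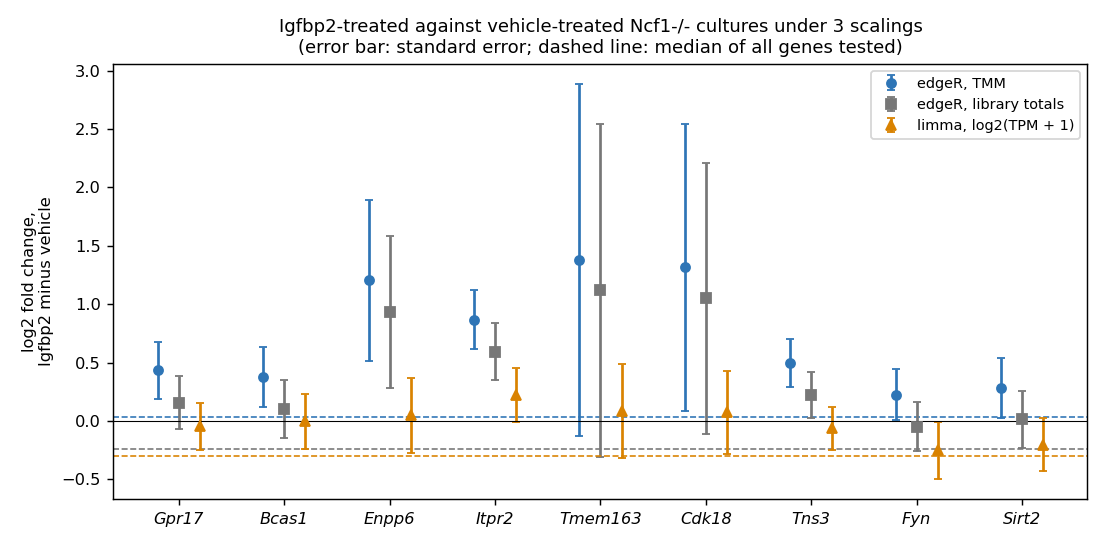
Log2 fold change of Igfbp2-treated against vehicle-treated *Ncf1*-/- cultures for each gene, by edgeR with TMM factors (blue), edgeR with library totals (grey) and limma on log2(TPM + 1) (orange), with bars for the standard error and dashed lines for the median of all genes tested under the same scaling. *Itpr2* has the highest orange value, and in blue and grey only *Enpp6*, *Tmem163* and *Cdk18*, with wide errors, lie above it. The 5 orange points below 0 lie above the orange line.

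Igfbp2-treated NSCs stayed below WT in all 9 genes, with every treated library below every WT library, as for 26.6% of all genes tested. These differences share the WT libraries with those above and the treated libraries with the treatment contrast, so the values are only set side by side. Against WT, *Fyn* was at 43.95% with Igfbp2 and 37.6% with vehicle, *Tns3* at 22.9% and 16.2%, *Sirt2* at 9.97% and 8.17%, *Bcas1* at 6.91% and 5.32%, and *Gpr17* at 3.27% and 2.42%. *Enpp6*, *Cdk18* and *Tmem163* were at 0.437%, 0.422% and 0.325% with Igfbp2 and at 0.189%, 0.169% and 0.1249% with vehicle. The log2 fold changes of Igfbp2-treated against WT NSCs ran from −1.19 ± 0.22 for *Fyn* to −8.26 ± 0.72 for *Tmem163*.

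**Figure D5:**
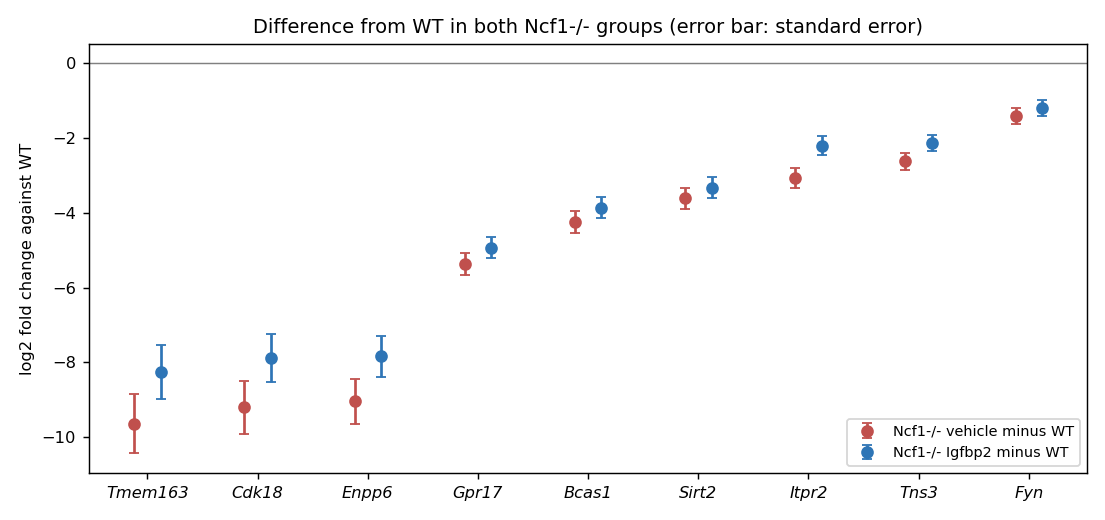
Log2 fold change against WT of vehicle-treated (red) and Igfbp2-treated (blue) *Ncf1*-/- NSCs for each gene, with bars for the standard error, ordered by the vehicle-treated value. *Tmem163*, *Cdk18* and *Enpp6* lie below −7 in both groups, and *Fyn* is nearest to 0 at −1.41 and −1.19.

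The earlier and later stages of the lineage were read from lists of genes that hold none of the 9, and 28.2% of all genes tested were called lower in vehicle-treated than in WT NSCs. All lists were chosen with earlier results of these data known, so their calls here and below are a description and give no independent support. Of 10 oligodendrocyte precursor genes, 10 were called lower, with a median log2 fold change of −1.50. Among them the extracellular matrix gene *Tnr* was at −4.70 ± 0.29, the secreted protein gene *C1ql1* at −4.06 ± 0.23 and the matrix gene *Matn4* at −3.21 ± 0.37, while *Ptprz1*, a receptor phosphatase, was at −0.43 ± 0.16 and *Lhfpl3* at −0.89 ± 0.09. Of 13 other genes of committed and newly formed oligodendrocytes, 11 were called lower, at a median of −2.65. *Bmp4*, a ligand of the TGF-beta family, was at −6.60 ± 0.37, *Lims2* at −4.62 ± 0.40 and *Tmem108* at −4.04 ± 0.31. With vehicle *Bmp4* had only 7 to 18 counts a library and *Matn4* 6 to 18. *Ctps*, at 0.03 ± 0.11, and *Tmem2*, at −0.52 ± 0.33, did not pass the test, and all 13 were lowest in WT culture 11 within WT.

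Of 12 oligodendrocyte transcription factors, 10 were called lower and 2 higher. *St18* was at −7.06 ± 0.69, *Myrf*, which drives the myelin programme, at −5.75 ± 0.34 and *Sox10* at −3.39 ± 0.22. *St18* had 0 to 3 counts a library with vehicle and 118 to 387 in WT, so its value rests on few counts. *Olig1* at 0.87 ± 0.09 and *Olig2* at 0.29 ± 0.09, which act from the progenitor stage on, were the 2 called higher. Of 14 myelin genes tested, 11 were called lower, among them *Mag* at −9.99 ± 0.79, *Mbp* at −9.78 ± 0.77, *Fa2h* at −7.47 ± 0.48 and *Gjc3* at −2.14 ± 0.29, and *Mal* at −0.16 ± 0.38 did not pass. With vehicle *Mag* had 3 to 6 counts a library and *Fa2h* 4 to 15, so both values rest on few counts in the lower group. *Trf* at 2.51 ± 0.13 and *Aspa* at 0.96 ± 0.36 were called higher and are named after their values were seen. *Trf* encodes transferrin, an iron carrier that other cells make as well. The median log2 fold change was −1.78 for the factors and −3.75 for the myelin genes, and the 9 genes described here had a median of −4.23, or −3.61 without *Tmem163* and *Cdk18*, which were chosen for this fall. The highest WT library was 1.59 times the lowest in the median of the precursor genes, 2.71 times in that of the committed-cell genes, 2.09 times in that of the factors and 4.43 times in that of the myelin genes.

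After Igfbp2, 3 of the 49 genes of these 4 lists were called higher and 1 lower, beside 14.2% higher and 10.7% lower of all genes. Both counts depended on the libraries in the fit. Without WT culture 11 they were 17 higher and 3 lower, beside 18.0% and 12.6% of all genes. Without WT cultures 11 and 12 they were 16 and 7, beside 19.4% and 17.5%. With only the 8 *Ncf1*-/- libraries they were 13 and 7, beside 19.5% and 18.3%. With the pup as a block they were 12 and 7, beside 19.0% and 17%. With all 12 libraries those called higher were *Cspg4* among the precursor genes (0.95 ± 0.15), *Tmem108* among those of committed cells (1.24 ± 0.30) and *Trf* among the myelin genes (1.01 ± 0.13). The only one called lower was the transcription factor *Zfp488* (−0.73 ± 0.20). Apart from *Tmem108*, these were named after their values were seen, as lists with 1 call. The median log2 fold change was 0.31 for precursor genes, 0.23 for committed-cell genes and for transcription factors, and −0.195 for myelin genes. Astrocyte markers summed to 3540 to 4729 CPM after Igfbp2. Neuronal markers had 3 genes called lower, NSC markers 1 lower and 1 higher, and mesenchymal markers 3 higher, with a sum of 23.4 to 26.8 CPM against 10.8 to 14.03 CPM. Their part in the treatment values of the 9 genes was not tested.

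The relatives of the 9 genes moved in both directions, and their counts stand beside 28.2% lower and 28.9% higher of all genes between the genotypes and 10.7% lower and 14.2% higher after Igfbp2. *Itpr2* was by far the most abundant inositol trisphosphate receptor of WT NSCs, at 27.7 ± 8.82 TPM beside 0.978 ± 0.458 TPM for *Itpr1* and 0.0350 ± 0.0451 TPM for *Itpr3*. Both relatives were called higher in vehicle-treated than in WT NSCs, *Itpr1* by 0.71 ± 0.22 and *Itpr3* by 1.75 ± 0.58 on the log2 scale, and *Itpr1* rose again after Igfbp2 by 0.67 ± 0.22 (edgeR adjusted p = 0.03945). Among tensins, *Tns1* and *Tns2* were called lower than in WT at −0.86 ± 0.13 and −1.39 ± 0.18, and *Tns1* was called higher after Igfbp2 at 0.80 ± 0.13. Of the other 6 sirtuins only *Sirt4* was called between the genotypes, higher in vehicle-treated NSCs at 0.53 ± 0.20, while *Sirt3* at −0.26 ± 0.13 did not pass. After Igfbp2, *Sirt1*, *Sirt6* and *Sirt7* were called lower at −0.47 ± 0.14, −0.40 ± 0.12 and −0.60 ± 0.13, and *Sirt5* higher at 0.54 ± 0.14, which is 3 and 1 of 6.

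Of 5 Src family kinases tested beside *Fyn*, *Yes1* was called lower in vehicle-treated NSCs at −0.45 ± 0.08, and *Lyn*, *Lck* and *Fgr* higher at 2.48 ± 0.41, 0.85 ± 0.34 and 4.43 ± 0.57. *Fgr* had 0 to 2 counts a library in WT and 9 to 17 with vehicle, and *Lck* 6 to 18 and 17 to 27. The values of *Fgr* and *Lck* thus rest on few counts. *Lyn* was at 23.2 ± 5.99 TPM with vehicle and 4.40 ± 3.99 TPM in WT, where *Fyn* was at 73.6 ± 9.97 and 229 ± 78.7 TPM. *Src*, at 0.04 ± 0.10, did not pass in that comparison and was called higher after Igfbp2 at 0.37 ± 0.10. Of 13 genes of the Fyn pathway, 6 were called lower and 3 higher than in WT, beside 28.2% lower and 28.9% higher of all genes. *Arhgap35*, a GTPase-activating protein that Fyn phosphorylates, was at −1.76 ± 0.16, *Mapt*, which encodes tau, at −1.51 ± 0.09 and *Pag1*, a membrane adaptor for Csk, at −1.43 ± 0.12. *Rhoa* and *Cdk5*, at 0.10 ± 0.09 and −0.11 ± 0.09, did not pass.

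Of 6 genes related to *Cdk18* or its cyclin Y partners, *Cdk14* and *Ccny* were called lower in vehicle-treated NSCs at −1.47 ± 0.22 and −0.97 ± 0.16, and *Ccnyl1* higher at 0.38 ± 0.12. *Cdk16* and *Cdk17*, the nearest relatives, were at 0.15 ± 0.08 and 0.05 ± 0.11 without passing the test, and both were called higher after Igfbp2, at 0.24 ± 0.08 and 0.37 ± 0.11. *Cdk15*, at −0.19 ± 0.47, did not pass in either comparison. In the *Enpp* family, *Enpp2*, *Enpp4* and *Enpp5* were called lower than in WT at −1.61 ± 0.14, −0.76 ± 0.18 and −0.45 ± 0.10, and *Enpp1* and *Enpp3* higher at 0.95 ± 0.35 and 2.20 ± 0.28. *Enpp3* was the only one called after Igfbp2, at −1.03 ± 0.26. Of 3 receptors near *Gpr17* that were tested, only *P2ry1* was called lower than in WT, at −1.10 ± 0.17, while *P2ry12* and *P2ry14* were at 0.28 ± 0.39 and −0.66 ± 0.33.

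Among 11163 other genes that averaged 5 CPM or more, the 8 whose log2 CPM followed the mean of the 9 genes most closely over the 12 libraries were *Mbp* (Pearson r = 0.998), *Myrf*, *Rasgef1b*, *Mag*, *Ppp1r16b*, *Elf1*, *Fam222a* and *Ston2* (0.9966). The libraries fall into a WT and an *Ncf1*-/- cluster, so these values mostly rank genes by that difference and by WT culture 11, and they are given as a description. *Mbp* was at 327 to 3885 CPM in WT, 2.37 to 3.40 CPM with vehicle and 3.92 to 10.2 CPM with Igfbp2. Within the 9 genes, r with their own mean was lowest for *Fyn* at 0.938 and *Itpr2* at 0.973 and at least 0.991 for the others.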

How the data were processed

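Per the labels, ribosome-depleted RNA was mapped with Bowtie2 and quantified with RSEM on GRCm38; versions, annotation and strand are not given in the sources used here. The authors deposited, for each of 12 libraries, RSEM expected counts, TPM and FPKM per gene, and a merged table headed TPM whose values were whole multiples of TPM (28.2% equal to it within 1%) and were treated as a score, used only for gene symbols. FPKM were not used. 33.8% of the positive expected counts were not whole. They were rounded, filtered with filterByExpr (15706 genes, 99.91% of the counts), scaled with TMM and fitted with edgeR 4.0.16 (quasi-likelihood) over the 3 groups, with Benjamini-Hochberg adjustment at 0.05. The study tested TPM with ANOVA. Here limma 3.58.1 on log2(TPM + 1) and DESeq2 1.42.0 were alternatives. CPM are TMM-scaled. On simulated data for the treatment contrast with 200 of 15396 genes changed by 1.5 on the log2 scale, edgeR recovered 194 with 8 false calls. The simulation gave every gene and group the same dispersion, and a change larger than the fitted treatment value of any member. It therefore does not give the power of the test for these genes.

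The 9 genes and all gene lists were chosen with earlier results of these data known. Of each list of more than 8 genes tested, the 3 largest and 2 smallest differences between the genotypes among genes that averaged 1 CPM or more were named, and of shorter lists every tested gene. List genes not matched or not tested included *Mical3*, *Samd4b*, *Casr*, *Ermn*, *Blk*, *Tns4*, *P2ry13*, *Cysltr1* and *Cysltr2*, and some list genes are not reported here. Each group had 4 cultures, each from 1 pup by the methods, which *Xist* beside Y-linked RNA did not bear out for the vehicle-treated cultures. Pairing of the *Ncf1*-/- cultures also comes from the methods and was not borne out by the Y-linked genes. The deviations of paired cultures from their group means correlated between -0.0673 and 0.0328 over 4 pairs, against -0.248 to 0.257 over 12 other pairs. Replicates differed by at least 4.72 times the sampling noise (chi-square per degree of freedom), so none was a copy.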

Additional observations from a re-analysis of the deposited data

How the results depend on the processing

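All 9 genes were below WT in both *Ncf1*-/- groups under every alternative run (DESeq2, other scalings, other filters, TPM with limma, each library left out). The treatment comparison moved more. Beside 3923 genes called (2238 higher, 1685 lower), 1 member higher, and 3 higher and 1 lower among lineage list genes and 8 higher and 6 lower among family and pathway list genes, the alternatives gave the following. With library totals there were 5906 calls (648 higher, 5258 lower), 0 members, 7 lineage genes lower, and 1 family gene higher and 10 lower. Limma on log2(TPM + 1) gave 6354 (200 higher, 6154 lower), 0 members, 1 lineage gene higher and 10 lower, and 0 family genes higher and 15 lower; it called 2905 genes lower and 7 family genes higher in vehicle-treated than in WT NSCs (4433 and 12 in the main analysis), and 1969 higher in Igfbp2-treated than in WT NSCs (4964). With log2(TPM + 0.1) these were 6519 (165 higher, 6354 lower), 0 members, 9 lineage genes lower, 0 and 15 family genes, and 2805, 7 and 2038. Rescaled TPM gave 953 genes higher, 0 members, 3 lineage genes lower, 3 family genes higher, and 2 lineage genes higher between the genotypes (4 in the main analysis). DESeq2 gave 5 lineage genes higher and 2 lower, and its size factors in edgeR 2 lower. A mean of at least 5 CPM left 1424 genes higher, 3 lineage genes lower and 5 family genes higher, and 7 family genes higher between the genotypes. With only the Ncf1-/- groups, 2759 genes were lower, 4 members higher, and 13 lineage genes higher and 7 lower. With the replicate block by preparation, 2560 genes were lower, 3 members higher, and 12 lineage genes higher and 7 lower. Without WT cultures 11 and 12 there were 6028 calls (2858 lower), 16 lineage genes higher and 7 lower, and 2 lineage genes higher between the genotypes. The count of members higher in that fit was 7. *Tmem163* and *Cdk18*, at 1 to 10 reads a library, are not read, which leaves 5 of 7 genes beside 19.4% of all genes. Single libraries left out gave 2294 (without culture 2) to 4872 (without WT culture 11) calls, 1202 to 2863 higher and 1021 to 2088 lower, 0 to 4 members, 3 to 17 lineage genes higher and 0 to 3 lower, and 2 to 12 family genes higher, with 2 to 4 lineage and 6 to 12 family genes higher between the genotypes. The cause of these shifts was not tested.

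Treatment values that turned below 0 were those of *Fyn* with library totals (-0.0472), of *Gpr17* (-0.0452), *Bcas1* (-0.001), *Tns3* (-0.0616), *Fyn* (-0.2506) and *Sirt2* (-0.2015) with log2(TPM + 1), and with log2(TPM + 0.1) in the same order -0.053, -0.0018, -0.0647, -0.2542 and -0.2057. As the libraries without *Ncf1* held 1 to 10 reads of them, depth limits the treatment values of *Tmem163* and *Cdk18*, whose standard errors were 1.51 and 1.23.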
